A study of Mus musculus with 96 samples.

Results

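Single mouse embryos of 22 and 24 h after fertilization were ranked by the share of their RNA that came from MERVL, an endogenous retrovirus, and the 5 highest (MERVL-high) were set against the 5 lowest (MERVL-low). The libraries were chosen by 1 measured value, the count of MERVL-int, the internal part of the element, divided by the library's total count over gene rows. The 2 groups hold 10 of the 16 libraries of these hours (10 of 22 h and 6 of 24 h) and 10 of the 96 libraries of the series, which follows single oocytes and embryos over the first hours and days after fertilization. All embryos came from C57BL/6J females superovulated with PMSG and, 46 h later, hCG, and paired with C57BL/6J males, and had no further treatment. Embryos were taken every 2 h, the earliest at 12 h from the hCG injection. The embryos had been freed of cumulus cells with hyaluronidase, kept in KSOM medium and made into one SMART-Seq v4 library each. All stages from 0 h to the late 2-cell stage went through cDNA synthesis as 1 cohort, apart from the oocytes and morulae. The groups are ranks of a measured value and not conditions to which embryos were assigned. MERVL-int chose the libraries, so it and its long terminal repeat MT2_Mm are described with no test of their own, though both are part of the summed repeat count below.

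MERVL is transcribed in a short burst at the mouse 2-cell stage, when the embryonic genome is activated. Its long terminal repeat, MT2, serves as a promoter for a set of host genes that appear in the same burst. The transcription factor Dux binds these repeats, and Zscan4, Zfp352, Usp17l and Tdpoz genes are well-known members of this two-cell program. KAP1 (Trim28) and the H3K9 methyltransferases that act with it are known repressors of endogenous retroviruses in mouse embryonic stem cells.

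MERVL-int made up 0.359% and 0.221% of gene counts in the MERVL-high libraries titled B12-1 and B12-5. The other 3 MERVL-high libraries, B11 3, B12-4 and B12-2, had 0.0127%, 0.0117% and 0.00828%. In the MERVL-low libraries B11 6b, B11 5b, B12 1b, B11 7b and B11 1b the shares were 0.00197%, 0.00151%, 0.00122%, 0.00119% and 0.00105%. The group called MERVL-high therefore holds a pair of libraries far above the rest, with the second in rank 17.5 times above the third, and 3 that lie only 4.21 times or more above the highest MERVL-low library. Next to the cuts, the last MERVL-high library had 0.00828% and the first one left out, B12 3b, 0.00653%. At the other end the first MERVL-low library had 0.00197% and the last one left out, B11 8b, 0.00275%. MT2_Mm took 3048 and 2096 CPM (counts scaled to library size) in B12-1 and B12-5, 168 to 220 CPM in the other 3 MERVL-high libraries and 53.4 to 80.3 CPM in the MERVL-low ones. Across the earlier hours the highest share in any library was 0.00491%, at 18 h, and the 8 libraries of 36 h held 0.461% to 1.82%. The B12-1 and B12-5 shares thus lay between those of all other libraries up to 24 h and those of 36 h.

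**Figure D1:**
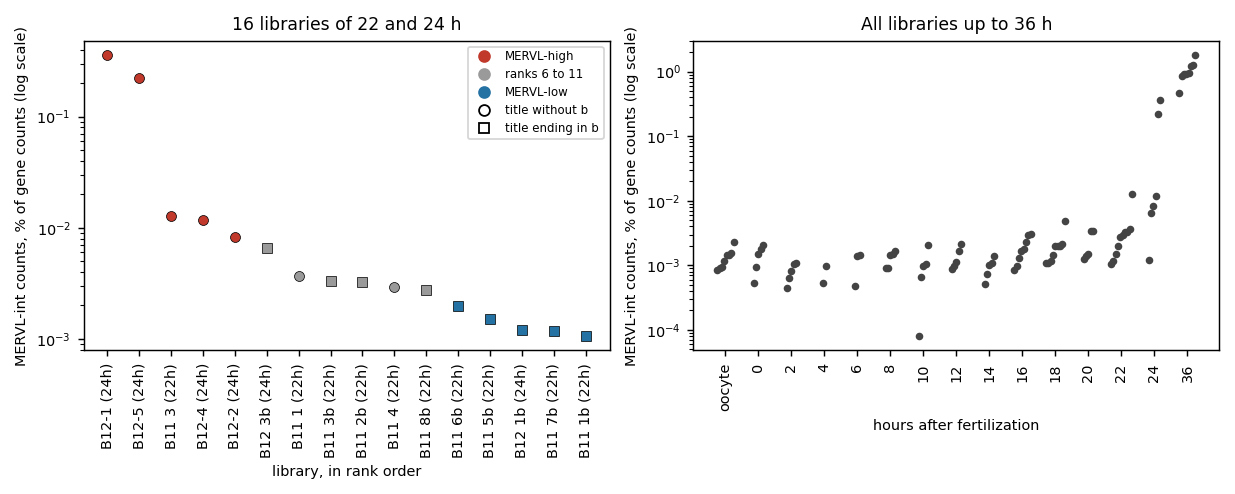
Share of MERVL-int in the gene counts of each library, on a log axis, for the 16 libraries of 22 and 24 h in rank order (left) and for all libraries from oocytes to 36 h (right). The 5 MERVL-high libraries carry titles without the letter b and the 5 MERVL-low ones titles with it, and B12-1 and B12-5, at 0.359% and 0.221%, stand apart from the rest.

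The hour and the title differ with the rank. Of the MERVL-high libraries 4 were of 24 h (titles B12) and 1 of 22 h (B11 3), whereas 4 MERVL-low libraries were of 22 h (titles B11) and 1 of 24 h (B12 1b). No MERVL-high title ends in the letter b, and every MERVL-low title does. The meaning of that letter is not given in the sources used here. It separates the groups completely, so with 5 libraries against 5 the rank cannot be told apart from the suffix. Among the 6 libraries in between, 4 end in b and 2 do not. No label says which embryos shared a mother, and p-values measure the spread between single embryos.

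Gene counts per library were 4070798 to 6795311 in MERVL-high and 1423166 to 6242451 in MERVL-low. Between 14251 and 18230 genes had at least 5 counts in MERVL-high libraries, and between 10268 and 16025 in MERVL-low ones. Neither property passed an exact two-sided permutation test over the 10 libraries (p = 0.587 for the total and p = 0.143 for genes detected, adjusted p = 0.661 and 0.214 over 9 properties). Repeat families together came to 17.4% to 21.9% of the gene count in MERVL-high and 5.75% to 10.9% in MERVL-low, without overlap (exact permutation p = 0.00794, the smallest that 5 against 5 can give, adjusted p = 0.0143). This sum contains MERVL-int, which chose the libraries, and MT2_Mm. They held 24406 and 21317 of 1488203 repeat counts in B12-1, and 337 and 808.5 of 708849 in B12-2. Defining oocyte markers (Zp3, Gdf9, Bmp15, Nlrp5, Padi6, Zar1 and Dppa3) were present in every library, with summed levels of 7922 to 10257 CPM in MERVL-high and 7615 to 11265 CPM in MERVL-low. In a single embryo a lower level of an mRNA and a shorter poly(A) tail cannot be told apart, since the kit primes cDNA on poly(A). Nor can fewer cells and less RNA per cell be told apart.

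The sequences that precede 4 genes with large increases are shown first, since these genes were high in the same 2 libraries. They are the 250 bases before the RefSeq start of Zfp352, Gm4340, BB287469 and Zscan4f, taken from GRCm38.p6, each 5′ to 3′ on the gene's strand. Zfp352 lies at chr4:90218570-90218819, Gm4340 at chr10:104193792-104194041, BB287469 at chr12:87816327-87816576 and Zscan4f at chr7:11397665-11397914, all on the plus strand. Capitals mark CCAAT, the core bound by NF-Y, and GGATTA, a core bound by homeodomain proteins such as OTX2, on either strand, so that they also read ATTGG and TAATCC.
Zfp352: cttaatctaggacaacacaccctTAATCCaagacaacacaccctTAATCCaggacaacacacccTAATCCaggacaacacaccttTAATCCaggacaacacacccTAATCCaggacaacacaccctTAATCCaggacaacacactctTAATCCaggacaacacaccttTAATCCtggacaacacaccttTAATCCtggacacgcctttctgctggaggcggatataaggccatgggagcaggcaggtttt
Gm4340: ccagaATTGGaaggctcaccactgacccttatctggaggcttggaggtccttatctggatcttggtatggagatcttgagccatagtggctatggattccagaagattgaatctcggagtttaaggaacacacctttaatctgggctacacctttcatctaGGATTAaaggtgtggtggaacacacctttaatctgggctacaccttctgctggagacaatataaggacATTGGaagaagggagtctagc
BB287469: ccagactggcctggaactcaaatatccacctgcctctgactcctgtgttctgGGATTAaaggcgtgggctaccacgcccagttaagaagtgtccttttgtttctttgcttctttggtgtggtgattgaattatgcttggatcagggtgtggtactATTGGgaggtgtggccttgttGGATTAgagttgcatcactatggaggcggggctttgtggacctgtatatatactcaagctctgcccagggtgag
Zscan4f: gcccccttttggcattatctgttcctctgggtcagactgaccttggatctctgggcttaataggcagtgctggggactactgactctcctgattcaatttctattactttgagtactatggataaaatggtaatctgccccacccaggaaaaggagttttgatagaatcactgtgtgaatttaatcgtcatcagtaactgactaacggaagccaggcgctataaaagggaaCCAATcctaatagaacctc
The window of Zfp352 holds GGATTA 9 times within a short tandem repeat and CCAAT 0 times. Gm4340 has CCAAT 2 times and GGATTA once, BB287469 has CCAAT once and GGATTA 2 times, and Zscan4f has CCAAT once and GGATTA 0 times. Neither motif contains the other. Among all 32851 windows of this length in the RefSeq table CCAAT was in 33.8% and GGATTA in 6.25%. Neighbouring copies can be nearly the same here: the windows of Gm4340 and Gm21293 are identical at 249 of 250 positions.

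Comparing MERVL-high with MERVL-low over all genes, 2511 of the 12516 genes tested were higher and 2443 lower (adjusted p under 0.05 in edgeR's quasi-likelihood test with Benjamini-Hochberg adjustment, used for every adjusted p below). These are 20.1% and 19.5% of the genes tested, or 39.6% together, and every count of a gene list below is to be read against those shares. In 1568 of the genes called higher and 1724 of those called lower, the 5 libraries of one group did not overlap the 5 of the other. Among all 12516 genes tested, called or not, 1625 had MERVL-high wholly above MERVL-low and 1784 wholly below. A lack of overlap in a single gene below is to be read against these counts. Calls, and groups without overlap, were thus common in this comparison. With the hour as a factor 1656 genes were higher and 1800 lower. In the 24 h libraries alone, in those with suffix b alone and in those without it alone, each ranked again within itself, no gene was called, with 1977, 1878 and 663 genes at an unadjusted p under 0.05. These fits held 6, 8 and 6 libraries, so an absence of calls there does not show an absence of differences.

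Genes of the two-cell program were among the largest increases. Of 53 listed genes with a row of counts, 23 passed the filter on low counts, and 20 of those were higher, 1 was lower and 2 did not pass the test; the median log2 change was 5.07, against 0.07 over all genes tested. Many of these genes were near 0 in MERVL-low libraries, so they entered the test through the MERVL-high libraries, and the counts describe the genes that passed. With the hour as a factor 9 of the 23 were higher and 1 lower (median 3.63), and without B12-1 and B12-5 15 of 22 were higher and 1 lower (median 2.35). In the 24 h libraries alone 31 were tested and 0 called, with a median log2 change of 5.34. BB287469 (chr12:87816577-87820676), a gene of the Eif1a-like family, had 272, 238, 7.47, 4.95 and 3.43 CPM in the MERVL-high libraries, in rank order, and 0, 0, 0, 0.192 and 0 CPM in the MERVL-low libraries. The pooled counts of 3205 and 1 give a ratio of 2587, with an exact 95% interval of 464 to 102232 that covers counting error only (adjusted p = 0.00819). Its relative Gm4027 had 290, 282, 9.83, 4.46 and 5.39 CPM in MERVL-high, against 0.157, 0.767, 0, 0 and 0 CPM in MERVL-low. Both genes were above all MERVL-low libraries in each MERVL-high one, yet the first 2 MERVL-high libraries exceeded the other 3 by far.

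Zfp352 (chr4:90218820-90225702), a zinc finger gene of the 2-cell stage, reached 276, 325, 10.4, 12.9 and 6.62 CPM in the MERVL-high libraries, and 0.157, 0.767, 0.236, 0.577 and 0 CPM in the MERVL-low ones. Its log2 change was 8.65 (SE 1.85, adjusted p = 0.00604). Gm4340 on chromosome 10 had 412, 429, 46.8, 26.3 and 6.13 CPM in MERVL-high and at most 0.314 CPM in MERVL-low (log2 change 9.45, SE 1.74, adjusted p = 0.00285). Its neighbours Gm21293 and Gm21304, and Gm8711 farther off on the same chromosome, rose with it, by 8.42, 8.30 and 8.05 on the log2 scale. Usp17lc, a deubiquitinase gene, had 84.1, 93.6, 12.4, 7.68 and 3.68 CPM in MERVL-high, and 1 MERVL-low library held its single count. For each of these genes the MERVL-high libraries outside B12-1 and B12-5 were low but still above MERVL-low.

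Zscan4 genes act in telomere maintenance in mouse embryonic stem cells, and their members differed in the 3 other MERVL-high libraries. Zscan4f (chr7:11397915-11402318) had 323 and 542 CPM in B12-1 and B12-5 and 4.72, 2.72 and 3.43 CPM in the other MERVL-high libraries, against 0.471 to 1.53 CPM in MERVL-low (log2 change 7.85, SE 2.12, adjusted p = 0.0181). Zscan4d had 487, 462, 15.5, 3.47 and 3.19 CPM in MERVL-high, and 10, 1.53, 5.2, 3.27 and 7.43 CPM in MERVL-low. Thus 2 of the 5 MERVL-high embryos had Zscan4d within the MERVL-low range, and the groups overlapped although the test called it (log2 change 5.07, SE 1.64, adjusted p = 0.0376). Without B12-1 and B12-5, an alternative chosen after seeing the data, the change was 0.36 for Zscan4d (adjusted p = 0.665), 0.54 for Zscan4a (adjusted p = 0.566) and 0.80 for Zscan4c (adjusted p = 0.287). Zscan4f, at 2.16, still passed (adjusted p = 0.0242). Zscan4, Usp17l, Eif1a-like and Obox4 copies are nearly identical and the deposited counts hold fractions, so which copy gave the counts is uncertain.

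Pseudogenes of Obox4 on chromosome 7 stood among the 12 largest increases (called, groups apart, at least 20 CPM on average in MERVL-high) with Obox4-ps16, Obox4-ps17 and Obox4-ps23. Obox4-ps16 had 36.2, 107.3, 16.1, 7.43 and 9.07 CPM in MERVL-high libraries and no count in MERVL-low ones, at least 258-fold higher against a floor of 3 counts over the group. Zscan4-ps2 was the remaining one, with 316, 664, 2.36, 3.47 and 2.45 CPM in MERVL-high and 0 to 0.769 CPM in MERVL-low. The 12 largest increases thus lay on chromosomes 4, 7, 10 and 12, and all but Zfp352 belong to families of close copies.

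**Figure D2:**
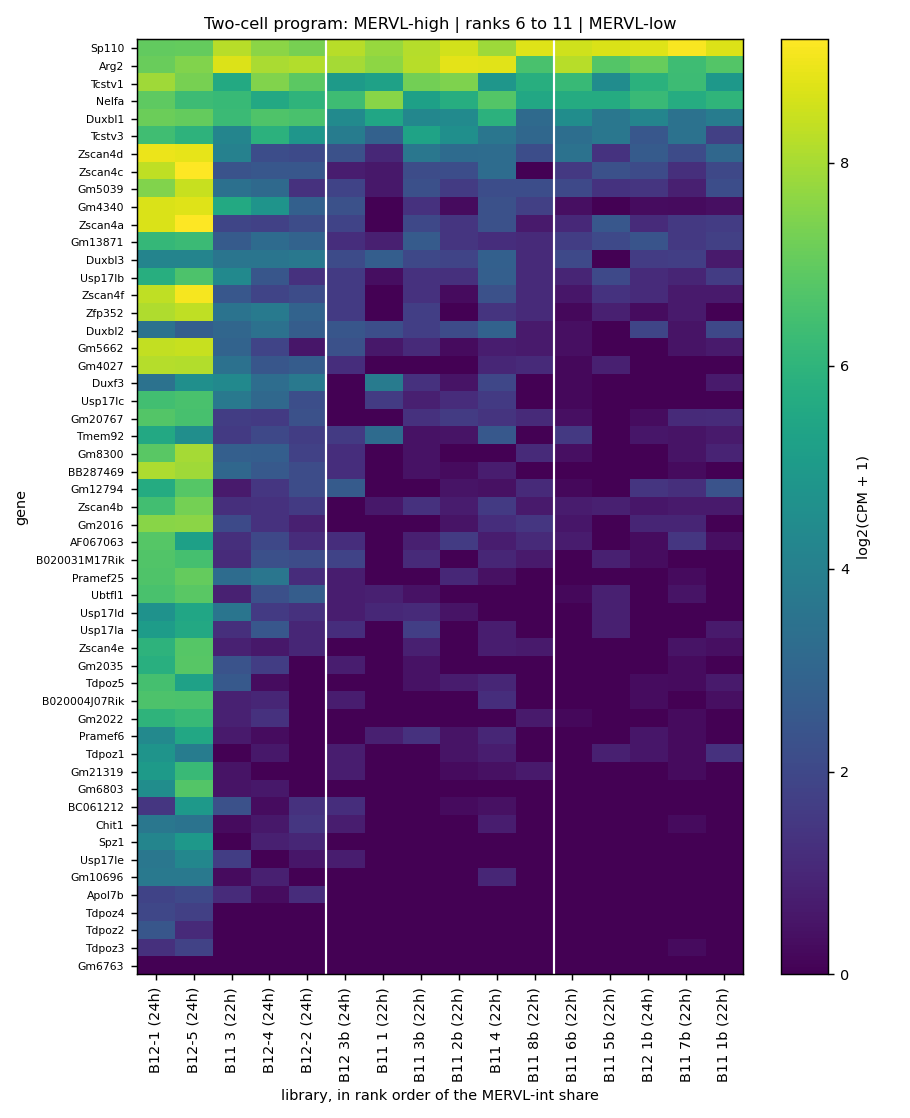
Levels of the 53 genes of the two-cell program list, as log2(CPM + 1), in the 16 libraries of 22 and 24 h in rank order, with white lines that part MERVL-high, ranks 6 to 11 and MERVL-low. Both left-hand libraries, B12-1 and B12-5, are bright for most genes, while the other 3 MERVL-high libraries are much dimmer for genes such as Zscan4f and Zfp352 but not for Duxf3.

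Other genes of the two-cell list, Duxf3 and the Dux-like Duxbl genes, were higher in all 5 MERVL-high embryos, and B12-1 and B12-5 did not stand far apart. Duxf3 (chr10:58229979-58232675, minus strand), the gene for Dux, had 10, 23.2, 19.5, 8.92 and 12.3 CPM in the MERVL-high libraries, against 0.157, 0, 0, 0 and 0.594 CPM in the MERVL-low ones. Pooled counts of 375 and 3 gave a ratio of 100.9 (exact 95% interval 34.3 to 492, adjusted p = 2.52e-06). B12-5 had the highest level, and B12-1 lay within the range of the other 3. Among the libraries ranked between, B11 1 and B11 4, the 2 without suffix b, had 13.2 and 2.92 CPM, and the 4 with the suffix had 0 to 1.51 CPM. Its median over libraries was 0 CPM in 18 h embryos, 0.457 CPM in those of 20 h, 0.503 CPM in those of 22 h, 9.46 CPM in those of 24 h and 0.626 CPM in those of 36 h, which ranged from 0 to 38.2 CPM.

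Duxbl1, a Dux-like homeobox gene, had 140, 131.7, 75.9, 100 and 92.9 CPM in MERVL-high and 22, 11.5, 17.2, 10.2 and 13.7 CPM in MERVL-low, a log2 change of 2.85 (SE 0.27, adjusted p = 9.35e-07). The copies Duxbl2 and Duxbl3 rose by 2.49 and 2.86 on that scale. Among the libraries ranked between, Duxbl1 had 42.8 and 59.4 CPM in B11 1 and B11 4, without suffix b. Those with the suffix had 8.12 to 20.2 CPM, so Duxbl1 also went with the suffix. Tcstv3, a gene of the 2-cell stage, had 82.6, 61.5, 17.3, 59.4 and 27.5 CPM in MERVL-high and 2.38 to 11.5 CPM in MERVL-low, and its relative Tcstv1 overlapped between the groups (log2 changes 2.78 and 1.501). Tmem92, Gm13871, Gm8300, Gm5039 and Usp17lb also passed, with log2 changes of 3.63 to 7.73, but were far higher in B12-1 and B12-5 than in B12-2 and B12-4 (log2 differences of 3.27 to 5.78, adjusted p = 0.0042 to 0.0176), and Gm5039 and Usp17lb overlapped between the groups. Sp110, a nuclear body gene, went the other way, with 125.5, 131.9, 299, 196 and 160 CPM in MERVL-high and 370 to 555 CPM in MERVL-low (log2 change -1.26, adjusted p = 0.00032). Arg2, an arginase gene, and Nelfa, a subunit of the negative elongation factor, did not pass (log2 changes 0.82 and 0.40, adjusted p = 0.0629 and 0.214).

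**Figure D3:**
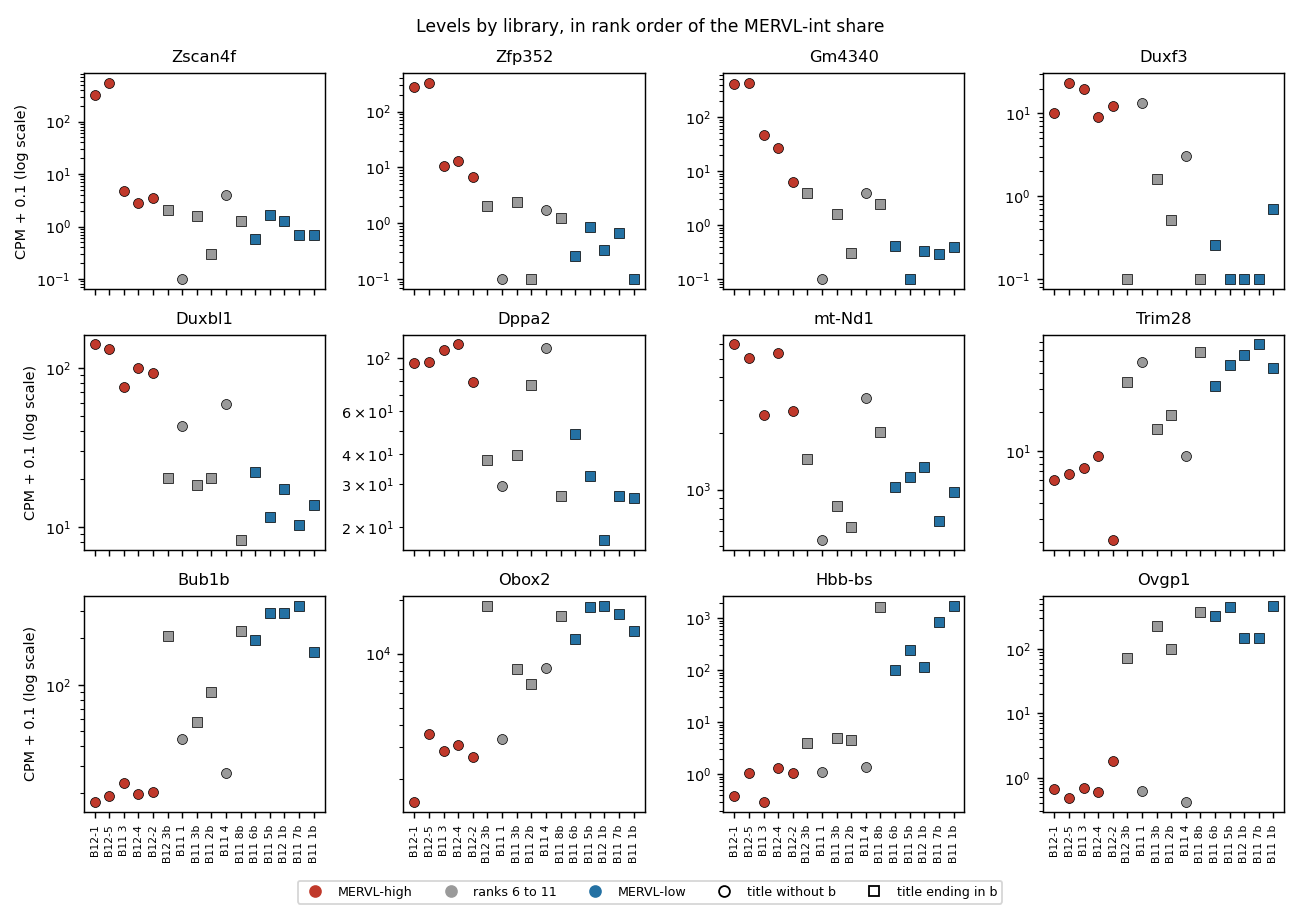
Levels of 12 genes in the 16 libraries of 22 and 24 h, as CPM + 0.1 on a log axis, in rank order of the MERVL-int share, with circles for titles without b and squares for titles ending in b. Zscan4f and Zfp352 reach 276 CPM or more in B12-1 and B12-5 alone, and Duxf3 and Duxbl1 are raised in all MERVL-high libraries. Duxf3, Duxbl1, Hbb-bs and Ovgp1 all separate by the suffix over the 16 libraries. Hbb-bs is at only 3.91 to 4.90 CPM in B12 3b, B11 3b and B11 2b.

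Levels in B12-1 and B12-5 were next compared with B12-2 and B12-4, which share the hour (24 h) and the absence of the suffix; this comparison was chosen after seeing the data and rests on 2 embryos against 2. Of 13324 genes 275 were higher (2.06%) and 34 lower (0.255%). Among 49 tested two-cell genes 37 were higher and 0 lower, with a median log2 difference of 4.96, against 0.01 over all genes. Here too many of the genes were near 0 in B12-2 and B12-4 and passed the filter through B12-1 and B12-5 (49 tested, against 23 among the 10 libraries), so the count and median describe the genes that passed and no others. Zscan4d differed by 7.14 (SE 0.24, adjusted p = 0.000148), Gm2016 by 7.40 (SE 0.34, adjusted p = 0.000334) and Gm5662 by 7.70 (SE 0.46, adjusted p = 0.0011). Duxf3 and Duxbl1 differed by 0.64 and 0.49 and did not pass (adjusted p = 0.629 and 0.275). Of the 52 two-cell genes with any count, 45 were higher in both B12-1 and B12-5 than in each of the other 14 libraries. B12-1 and B12-5 were picked here for their MERVL-int share, so the genes are those that went with that share at a constant hour and suffix.

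Of 33 maternal-effect genes 3 were called lower and 0 higher in that pair, where 0.255% of all genes were lower: Ooep, a subunit of the subcortical maternal complex, Dnmt1, the maintenance DNA methyltransferase, and Zar1l. Dnmt1 had 45.8 and 47.6 CPM in B12-1 and B12-5, against 154 and 143 CPM in B12-4 and B12-2 (log2 difference -1.67, SE 0.20, adjusted p = 0.0105). Ooep had 371 and 423 CPM in the pair and 899 and 952 CPM in the other 2. Hsp90aa1, the inducible HSP90 gene, was lower too, at 226 and 247 CPM in the pair against 692 and 733 CPM (adjusted p = 0.00607).

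Windows before the start were at hand for 120 of the 275 genes higher in the pair. GGATTA was in 25.2% of their windows and CCAAT in 48%, beside 6.25% and 33.8% of all windows. For the 2511 genes higher in MERVL-high, 6.83% and 39.2% of 2109 windows held these letters. Several of the 120 genes are copies of one another, so their windows are not independent, and a match is no evidence of binding.

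Obox genes, oocyte-specific homeobox genes with a role in genome activation in mouse, differed among themselves. Obox2 had 1488, 3560, 2865, 3092 and 2654 CPM in MERVL-high and 12122, 18293, 18523, 16752 and 13455 CPM in MERVL-low, a log2 change of -2.53 (SE 0.23, adjusted p = 8.27e-07). Obox1 overlapped between the groups and was lower by a smaller step (-0.58, adjusted p = 0.0215). Of 5 tested members 0 were higher and 2 lower. Obox3 had 65.9 and 37.1 CPM in B12-1 and B12-5 but 2.36 to 4.46 CPM in the other MERVL-high libraries, against 1.57 to 8.97 CPM in MERVL-low, and did not pass (log2 change 2.21, adjusted p = 0.0811). Against B12-2 and B12-4 alone it was higher in that pair by 3.65 (adjusted p = 0.00988). Obox5 and Obox7, at 0.09 and 0.18, did not pass either.

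Regulators of genome activation went both ways: 7 of 22 tested were higher and 4 lower. Tbp, the TATA-binding protein, had 196, 184, 207, 224 and 189 CPM in MERVL-high, against 95.1, 66, 55.3, 56.5 and 54.1 CPM in MERVL-low (log2 change 1.62, SE 0.19, adjusted p = 8.55e-06). Dppa2, an upstream activator of Dux in mouse embryonic stem cells, had 94.9, 95.5, 107.2, 113.4 and 79.2 CPM in MERVL-high and 17.5 to 48.3 CPM in MERVL-low (log2 change 1.71, adjusted p = 5.06e-05). Ctcf, the insulator protein, fell by 1.41 on the log2 scale. Between B12-1 and B12-5 and the 2 libraries of like hour and suffix, neither Tbp nor Dppa2 passed the test (log2 differences -0.12 and -0.02, adjusted p = 0.831 and 0.984).

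Known repressors of MERVL were more often lower than higher, with 17 of 36 tested lower, 7 higher and a median log2 change of -0.65. Trim28 (chr7:12999114-13031035), the KAP1 corepressor, had 5.86, 6.57, 7.28, 9.16 and 1.96 CPM in MERVL-high and 31.5, 46, 55.3, 66.5 and 43.4 CPM in MERVL-low. The groups did not overlap (log2 change -2.97, SE 0.34, adjusted p = 6.54e-06). Ehmt1, the H3K9 methyltransferase GLP, had 5.2 to 15.5 CPM in MERVL-high and 34.9 to 48.1 CPM in MERVL-low, and Atrx, a chromatin remodeller, 125.5 to 286 CPM in MERVL-high and 459 to 1185 CPM in MERVL-low. Nono, an RNA-binding paraspeckle protein on the list, rose by 1.81 (SE 0.23, adjusted p = 1.4e-05). Within the 24 h libraries without suffix b, the difference of B12-1 and B12-5 from the other pair did not pass for Trim28, Ehmt1 or Atrx (log2 differences 0.16, 0.87 and 0.24, adjusted p = 0.952, 0.491 and 0.772), and of the 36 repressors 1 was higher and 1 lower. Trim28 was at 48.2 CPM in B11 1 and 9.10 CPM in B11 4, the 2 libraries without the suffix that ranked between the groups.

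**Figure D4:**
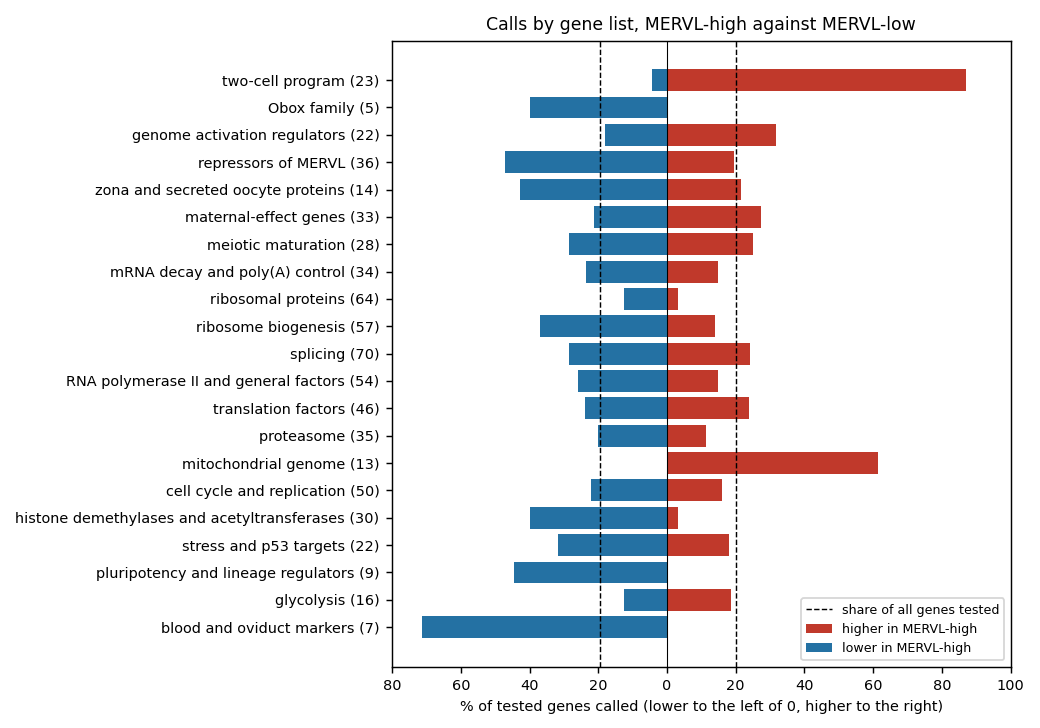
Share of the tested genes of each list with at least 5 tested members (number in brackets) that were called higher, to the right, or lower, to the left, in MERVL-high against MERVL-low. Dashed lines mark the shares over all genes tested, 20.1% and 19.5%, and the bars of the two-cell program, the mitochondrial genome, and the blood and oviduct markers extend farthest.

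Of 33 maternal-effect genes 9 were higher and 7 lower, and of 28 genes of meiotic maturation 7 were higher and 8 lower, near the shares over all genes of 20.1% and 19.5%. Bub1b, a spindle checkpoint kinase gene, had 17.4, 19.1, 23, 19.6 and 20.1 CPM in MERVL-high and 194, 288, 292, 324 and 162 CPM in MERVL-low (log2 change -3.66, SE 0.23, adjusted p = 4.77e-08). Pde3a, the oocyte phosphodiesterase, fell by 2.19, and Zar1 and H1foo, a maternal-effect gene and the oocyte linker histone, by 2.14 each. Tet3, the dioxygenase that acts on paternal DNA methylation, had 130.97 to 202 CPM in MERVL-high and 410 to 664 CPM in MERVL-low. Gdf9 and Bmp15, a pair of oocyte growth factor genes, went opposite ways: Gdf9 had 275 to 404 CPM in MERVL-high and 711 to 1337 CPM in MERVL-low, whereas Bmp15 had 2885 to 4549 CPM in MERVL-high and 1110 to 2042 CPM in MERVL-low. Ccnb1, cyclin B1, rose by 0.89 (SE 0.17, adjusted p = 0.000699). None of these 8 maternal genes passed the test between B12-1 and B12-5 and the other pair of 24 h libraries (adjusted p = 0.465 to 0.982).

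Genes of the mitochondrial genome were higher in MERVL-high, with 8 of 13 called higher, 0 lower and a median log2 change of 1.19. mt-Nd1, a subunit of complex I, had 5955, 5056, 2498, 5339 and 2614 CPM in MERVL-high and 676 to 1325 CPM in MERVL-low (log2 change 2.06, SE 0.27, adjusted p = 2.35e-05). mt-Cytb rose by 1.55. Summed over the 13 genes, levels were 16966 to 34605 CPM in MERVL-high and 7289 to 12563 CPM in MERVL-low (exact permutation p = 0.00794, adjusted p = 0.0143). Among lists of general functions, 2 of 64 ribosomal protein genes were higher and 8 lower, 8 of 57 ribosome biogenesis genes were higher and 21 lower, and 17 of 70 splicing genes were higher and 20 lower. Histone demethylases and acetyltransferases counted 1 higher and 12 lower of 30, and pluripotency and lineage regulators 0 higher and 4 lower of 9. Of the other lists, zona and secreted oocyte proteins counted 3 higher and 6 lower of 14, mRNA decay and poly(A) control 5 and 8 of 34, and RNA polymerase II and its general factors 8 and 14 of 54. Translation factors counted 11 and 11 of 46, the proteasome 4 and 7 of 35, cell cycle and replication 8 and 11 of 50, stress and p53 targets 4 and 7 of 22, and glycolysis 3 and 2 of 16.

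The largest decreases were of another kind: markers of red blood cells and of the oviduct. Hbb-bs, a beta globin, had 0.286, 0.967, 0.197, 1.24 and 0.98 CPM in MERVL-high and 101.7, 250, 114.5, 833 and 1738 CPM in MERVL-low (log2 change -9.75, SE 1.25, adjusted p = 0.000347). Ovgp1, oviductal glycoprotein 1, had at most 1.72 CPM in MERVL-high, against 151 to 472 CPM in MERVL-low. Hbb-bt, Hba-a1 and Hba-a2 were lower alike, as was 1500015O10Rik, which had no count in MERVL-high libraries and was at least 247-fold lower there, and Wfdc18 and Gstm2. Of 7 tested blood and oviduct markers 0 were higher and 5 lower, and the defining marker Foxj1 of ciliated oviduct cells was at 0 in all 10 libraries, and Ptprc of leukocytes at 0 in MERVL-high and at most 0.157 CPM in MERVL-low. Lyz2, another leukocyte marker, had 13.3 and 13.1 CPM in B12-1 and B12-5 and at most 0.245 CPM in the other MERVL-high libraries, against 0 to 5.94 CPM in MERVL-low, and was called higher in that pair against B12-2 and B12-4 (log2 difference 6.48, SE 0.87, adjusted p = 0.0156). Summed red blood cell markers ranged from 2.23 to 16.2 CPM in MERVL-high and from 266 to 5219 CPM in MERVL-low, and summed oviduct markers from 2.36 to 15.2 CPM in MERVL-high and from 156 to 482 CPM in MERVL-low. Cumulus and granulosa markers were at 50.2 to 71.4 CPM in MERVL-high and 85.9 to 112.6 CPM in MERVL-low. Cyp19a1, the aromatase gene of granulosa cells, gave 16.3 to 56.6 CPM of that sum in MERVL-high and 61.2 to 89.1 CPM in MERVL-low. Other members, at low counts, went both ways. Has2 and Fshr had pooled counts of 51 and 68 in MERVL-high against 2 and 0 in MERVL-low. Inhba and Akr1c18 had 0 and 6 against 25 and 72. The oviduct sum in MERVL-low was nearly all Ovgp1 (472 of 482 CPM in B11 1b). Epcam, an epithelial marker, was at 1.77 to 12.9 CPM in MERVL-high and 4.25 to 9.57 CPM in MERVL-low, so the groups overlapped, and Krt7 and Pax8, also epithelial, were at most 2.20 CPM in any of the 10 libraries. Over the 16 libraries the summed oviduct markers were 78.3 to 482 CPM in the 9 with suffix b and 2.27 to 15.2 CPM in the 7 without it, so this sum, carried by Ovgp1, went with the suffix in the libraries between as well. The summed red blood cell markers were 9.13 to 5219 CPM with the suffix and 2.23 to 16.2 CPM without it, so that sum overlapped. The part of these markers in the other differences was not tested.

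Repeat families other than MERVL and MT2_Mm were more often called higher than lower in MERVL-high, with 265 of 565 higher (46.9%) and 19 lower (3.36%). MTA_Mm-int, the internal part of a MaLR element abundant in oocytes, had 106243, 105605, 100892, 96580 and 87104 CPM in MERVL-high and 30826, 14234, 20891, 18841 and 15487 CPM in MERVL-low (log2 change 2.32, SE 0.21). MT-int, MTB-int, MYSERV6-int, MTA_Mm and Lx5b had the other smallest p-values, with log2 changes of 1.16 to 2.35, each above all MERVL-low libraries. MT2C_Mm, a relative of the MERVL repeat, was high in B12-1 and B12-5 (283 and 291 CPM), and had 57 to 84.2 CPM in the other MERVL-high libraries and 30.2 to 57.9 CPM in MERVL-low (log2 change 1.98, adjusted p = 0.0162). L1Md_T, a young LINE-1 family, fell by 0.91, and RLTR4_MM-int by 1.23. Between B12-1 and B12-5 and the other pair of 24 h libraries MTA_Mm-int did not pass (log2 difference 0.20, adjusted p = 0.433), while MT2C_Mm was higher by 1.91 (adjusted p = 1.7e-07). With hour as a factor 94 families were higher and 8 lower, and without B12-1 and B12-5 193 and 19. Among the libraries ranked between, MTA_Mm-int had 98631 and 72050 CPM in B11 4 and B11 1, without suffix b. Those with the suffix had 22122 to 72258 CPM. Over the 16 libraries all repeats together came to 13.2% to 21.9% of the gene count without the suffix and 5.75% to 18.0% with it. The part of the suffix in the repeat calls was not tested.

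Embryos of 36 h were set against those of 12 h, libraries that share nothing with the ranked ones, which places these genes in developmental time. Of 12066 genes 36.3% were higher at 36 h and 24.1% lower. Of 2225 genes higher in MERVL-high and tested in both, 955 (42.9%) were also higher at 36 h and 340 (15.3%) lower there, against 27.5% and 28.1% of all 10303 genes tested in both. Of 2197 genes lower in MERVL-high, 1269 (57.8%) were lower at 36 h and 177 (8.06%) higher. For the genes that were higher in B12-1 and B12-5 than in the other 24 h pair, 257 of 268 (95.9%) were higher at 36 h and 1 lower. Zfp352 was higher at 36 h by 10.08 and Zscan4f by 9.58 on the log2 scale, Trim28 lower by a change of -1.63, and mt-Nd1 higher by 2.75.

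**Figure D5:**
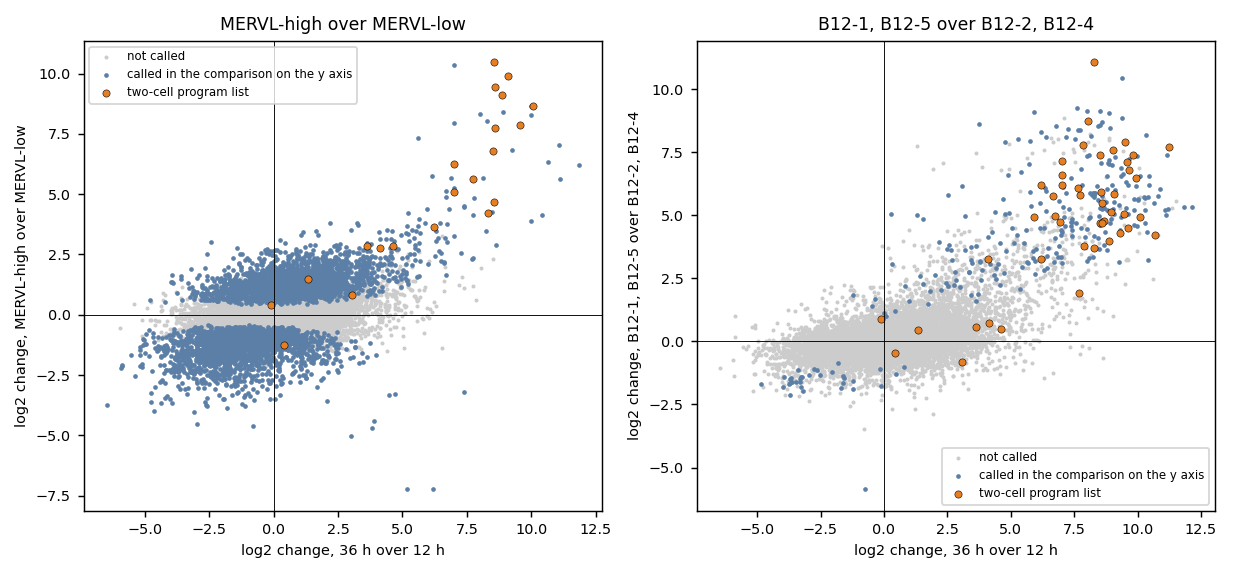
Log2 change of 36 h over 12 h embryos (x axis) against that of MERVL-high over MERVL-low (left, y axis) and of B12-1 and B12-5 over B12-2 and B12-4 (right, y axis), 1 point per gene, with called genes in blue and the two-cell list in orange. In the right panel 257 of 268 called-higher genes were also higher at 36 h, against 31.2% of all genes tested in both. Many two-cell genes there passed the filters through B12-1 and B12-5 or through 36 h, so the count describes the genes that passed. On the left called genes fill all quadrants, 340 of those called higher (15.3%) being lower at 36 h, against 28.1% of all genes tested in both.

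In the 22 embryos of 16 to 20 h gene levels were fitted against the log2 of the MERVL-int share with the hour as a factor. The share was low at these hours, 0.000836% to 0.00491%, and overlapped that of oocytes (0.000839% to 0.0023%). It rested on 11.2 to 219 MERVL-int counts per library, and the fit took no account of the counting error in it. Of 12291 genes 19.8% were called (1335 higher and 1102 lower per doubling). Titles at 16 h and 18 h came with and without suffix b, and at 20 h all ended in b. With the suffix as a factor in place of the hour, a fit added after seeing the data, 1633 genes rose and 1146 fell. The overlaps below come from the fit with the hour, which took no account of the suffix. Among the 2350 genes higher in MERVL-high and tested in both, 590 (25.1%) rose with the share at 16 to 20 h and 46 (1.96%) fell, against 11.2% and 9.32% of all genes tested in both. Gm42553, Hexdc, a hexosaminidase, and Paip2, a poly(A)-binding protein interactor, rose in both, and Med20, a Mediator subunit, Rragc, a GTPase of the mTORC1 pathway, and Edem2, an ER degradation factor, fell in both. Med20 had 6.58, 12.6, 9.44, 3.22 and 9.31 CPM in MERVL-high and 45.5 to 144 CPM in MERVL-low, and a slope of -1.24 per doubling (SE 0.15, adjusted p = 2.8e-05) at 16 to 20 h. Only 10 two-cell genes passed the filter there, of which 2 rose. Genes called higher in the pair with the highest MERVL-int shares showed no such overlap. Of 65 tested in both, 6 (9.23%) rose with the share at 16 to 20 h and 4 (6.15%) fell. Among all genes tested in both these were 11.3% and 9.38%. Of 34 genes called lower in that pair, 7 (20.6%) rose and 1 (2.94%) fell. In the 18 h libraries alone no gene was called (999 at an unadjusted p under 0.05), and at 16 h and 20 h alone 273 and 2744 genes were.

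Genes whose level followed the MERVL-int share most closely over the 16 libraries, among 5564 with a mean of at least 20 CPM, were Clns1a, Wdtc1, Epb41l4a, Prr13, Zfp592, Bnip3, Lamtor1 and Tbp. Their Spearman rho was 0.903 to 0.947, given as a description over 16 libraries that also differ in hour and suffix. None of them was on the two-cell list. A fit of the share over the 16 libraries with the suffix as a factor was added after seeing the data. Of 14289 genes tested 396 rose and 253 fell, and of 35 two-cell genes 27 rose and 0 fell. The pair of libraries with by far the highest shares was part of this fit, and many two-cell genes were near 0 outside that pair. The two-cell count thus describes the genes that passed the filter and is not separate from the comparison of that pair. Trim28, Tbp and Dppa2 did not pass in that fit (adjusted p = 0.152, 0.389 and 0.625).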

How the data were processed

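RNA of single oocytes and embryos was sequenced with SMART-Seq v4 and Nextera XT, per the labels' protocols. Trimmomatic 0.39, STAR and featureCounts on mm10 are named in the submitters' processing notes. The deposited table holds estimated counts for 55401 genes and 873 repeat families, of which 28.36% and 70.62% of values above 0 were not whole, and no header says how multimapped reads or strand were treated. GENCODE M21 gave names for 55141 gene IDs. Counts were rounded for edgeR 4.0.16 in R 4.3.3 (filterByExpr, TMM, robust quasi-likelihood F test, Benjamini-Hochberg threshold 0.05). CPM used TMM factors over all 96 libraries. Totals count gene rows. On simulated data for MERVL-high versus MERVL-low (12516 genes) 74% of 4-fold and 20% of 2-fold changes were recovered, with 0.00812% of unchanged genes called. Genes were drawn independently there, with no difference by hour or suffix, so the last share does not measure false calls in the real comparison.

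Library properties were compared by an exact permutation test (scipy 1.17.1, Python 3.11.15) and adjusted over 9. DESeq2 1.42.0, other scalings, filters and groupings were alternatives. Named genes were the 12 largest changes in each direction among called genes with groups apart and a mean of at least 20 CPM in the higher group, up to 4 per list by smallest p, tested members of the two-cell and Obox lists, up to 6 that also passed at 16 to 20 h, and 6 repeat families. Genes lower in the B12-1 and B12-5 pair, the repeats MT2C_Mm, L1Md_T and RLTR4_MM-int, and Gm2016, Gm5662 and Lyz2 were named after their values were seen. Promoters come from RefSeq, GRCm38.p6. Members and lists were chosen with earlier results of these data known. Intervals and floors cover counting error only.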

Additional observations from a re-analysis of the deposited data

Results flagged for a closer look

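In 18 of 166 sets of 5 libraries 1 library lay far from the other 4 by Dixon's criterion, and chance flags about 1 in 20. Among MERVL-high libraries, B12-5 stood apart for Obox4-ps16 (107.3 CPM) and MYSERV6-int (212 CPM), and B12-2 for Ovgp1 (1.72 CPM). B12-1 stood apart for Hba-a1 (12.3 CPM), the summed red blood cell markers (16.2 CPM) and the summed oviduct markers (15.2 CPM). Among MERVL-low libraries, B11 6b was the high one for Arg2 (295 CPM), Tbp (95.1 CPM), Paip2 (107.3 CPM), MTB-int (263 CPM) and MTA_Mm (13774 CPM), and for the single count of Usp17lc (0.157 CPM). B11 5b was the high one for Zscan4a (4.60 CPM), and for Gm4027 and Obox4-ps17 (0.767 CPM each). B11 1b was the high one for Duxf3 (0.594 CPM) and the summed cumulus markers (112.6 CPM), and B11 7b for BB287469 (0.192 CPM).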

How the results depend on the processing

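No paired analysis was possible because replicate numbers follow accession order and pair no libraries. Suffix as a factor in the comparison of 5 with 5 could not be fitted, since it equals the group. Over 90 single genes and families and 2324 alternative values, 1854 kept their direction and side of the threshold, 390 lost the call, 19 gained it and 61 turned. The cause was not tested.

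Genes called, 4954 in the comparison of 5 with 5, were 4183 to 5298 with 1 library left out, 2542 with 7 against 7, 1309 with 8 against 8, 1146 at 22 h alone, and 0 at 24 h alone, with suffix b alone and without it alone. Fits of the share over 16 libraries called 2573, 1132 with the hour and 649 with the suffix, and B12-1 and B12-5 against B12-2 and B12-4 gave 309. With library size alone as scaling, which moved the median log2 change to 0.18, 57.5% of calls were higher, against 50.7%. Of repeat families tested 50.3% were called, 36.8% to 52.5% with 1 library left out, 18.1% with the hour, 10.1% with 7 against 7, 0.940% with 8 against 8, 5.84% at 22 h alone, 0.528% at 24 h alone, 0.209% with suffix b alone and 0% without it, 21.0% in the fit over 16 libraries with hour, 12.4% with suffix and 8.94% in the pair. The 16 to 20 h fit called 273 genes at 16 h alone and 0 at 18 h alone, and the 36 h comparison 6708 to 7547 with 1 library left out.

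In B12-1 and B12-5 against B12-2 and B12-4, log2 changes turned for Arg2 (-0.80), Obox7 (-0.055), Dppa2 (-0.017), Tbp (-0.12), Ctcf (0.54), Trim28 (0.16), Ehmt1 (0.87), Atrx (0.24), Nono (-0.23), Bmp15 (-0.26), Zar1 (0.58), H1foo (0.19), mt-Cytb (-0.021), Hba-a1 (1.91), Hexdc (-0.055), Med20 (0.60), Rragc (0.61), Paip2 (-0.12), MTB-int (-0.021), MYSERV6-int (-0.16) and Lx5b (-0.12). In libraries without suffix b alone they turned for Arg2 (-0.36), Nelfa (-0.41), Obox7 (-0.027), Atrx (0.59), Nono (-0.38), Bmp15 (-0.12), Ccnb1 (-0.047), Hba-a1 (1.30) and Lx5b (-0.0032). In those with suffix b alone they turned for Nelfa (-0.10), Obox3 (-0.15), Obox5 (-0.14), Obox7 (-0.033), Ccnb1 (-0.34), 1500015O10Rik (0.28) and Wfdc18 (0.90). In the fit with suffix, slopes turned for Arg2 (-0.072), Nelfa (-0.026), Nono (-0.032), Bmp15 (-0.034), Ccnb1 (-0.027), Hba-a1 (0.16), Hba-a2 (0.041) and L1Md_T (0.0040). In the fit with hour they turned for Obox5 (-0.025) and Obox7 (-0.022). With the hour as a factor they turned for Obox5 (-0.40) and Obox7 (-0.15). At 22 h alone they turned for Obox3 (-0.18), Obox5 (-0.56) and Obox7 (-0.17). At 24 h alone they turned for Arg2 (-0.25) and Obox7 (-0.11). With 3 against 3 they turned for Obox5 (-0.035) and Obox7 (-0.082). With 7 against 7 the change turned for Obox7 (-0.032). With 8 against 8 it turned for Obox7 (-0.0076). Without B12-1 and B12-5 it turned for Obox3 (-0.53) and Obox5 (-0.13). With 1 library left out, Obox5 ran from -0.027 to 0.25.

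With 1 library left out, the difference in gene total ran from -131220 to 1073600 counts, that of oocyte markers from -621 to 292 CPM, genes detected 1124 to 2563, repeats 10.7 to 12.3 percentage points, mitochondrial genes 15083 to 19493 CPM, red blood cell markers -2155 to -916 CPM, oviduct markers -354 to -273 CPM, leukocyte markers 0.212 to 3.74 CPM and cumulus markers -39.1 to -31.1 CPM. Small counts in single embryos limit what low genes can show.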
